A study of Rattus norvegicus with 66 samples.

Results

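Axon guidance ligands and receptors were followed as a set of 49 listed rat genes, in the Eph, ephrin, semaphorin, plexin, neuropilin, Slit, Robo, netrin, Dcc and Unc5 families. A listed gene was taken up when an entry of the gene table carried exactly its symbol, and where several entries shared the symbol, the entry with the most counts was used. This gave 48 members among 37777 genes: 12 Eph receptors, 8 ephrins, 9 semaphorins, 7 plexins and neuropilins, 6 genes of the Slit and Robo families, and 6 of netrin 1, Dcc and the Unc5 receptors. The remaining name, Plxna4, was not a symbol of the table. An entry named Plxna4a was, and its values are given once, outside the 48.

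RNA was sequenced from the dorsal hippocampus of 64 Long Evans rat pups on postnatal day (PND) 6, in 66 libraries. By their labels, 1 male and 1 female control each gave a library of each name form (defined with the depth of the libraries). Dams received Aroclor 1254, a mixture of polychlorinated biphenyls, or bisphenol A, a monomer of plastics, with the chow, or chlorpyrifos, an organophosphate insecticide, by subcutaneous injection. Treated chow was given from before mating until PND 6, whereas injections ran through most of pregnancy and again in nursing, with a pause around birth. Only the dams were dosed directly. The male groups were feeding controls (CONF, 4 pups), injection controls (CONSC, 5), Aroclor 1254 at 0.5 mg/kg (Aro0.5, 4) and 5 mg/kg (Aro5, 6), bisphenol A at 0.5 mg/kg (BPA0.5, 4) and 5 mg/kg (BPA5, 7), and chlorpyrifos at 1 mg/kg (CPF1, 4) and 3 mg/kg (CPF3, 7). The female groups were CONF (5 pups), CONSC (5), Aro5 (5), BPA5 (4) and CPF3 (4), so that no female had a low dose. CONF pups came from dams on plain chow and CONSC pups from dams injected with vehicle, which the sample labels call saline and the methods dimethyl sulfoxide. The pups belonged to 44 litters, and some litters gave a pup of each sex. The tissue piece was cut from frozen brain and included some neocortex lying lateral to the hippocampus, so that values are those of a mixture. In such bulk samples, fewer cells of a type and less RNA per cell cannot be told apart.

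Growing axons read guidance cues with receptors on the growth cone. Ephrins are membrane-bound ligands of the Eph receptor tyrosine kinases, and repulsion between both sides helps to order the connections of hippocampus, neocortex and thalamus. Most secreted class 3 semaphorins act through neuropilins, which bind the ligand, and plexins, which carry the signal into the cell. Many membrane-bound semaphorins bind plexins directly. Slit proteins are repellents read by Robo receptors, and netrin 1 attracts axons through Dcc and repels them through Unc5 receptors. In the first postnatal week hippocampal neurons still extend axons and form layers and synapses, and many of these genes are in use then.

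Total counts per library lay between 10644138 and 86206550, with a median of 20740650, and all 48 members passed the filter on low counts in each comparison. Library names were sorted by spelling into name forms A and B, whose meaning the labels do not give. Male names of form A end in a capital Y and those of form B in a small y. Control female names of form A have a low line after the group, and those of form B do not. High-dose males have that line too, so form B rests on different features in males and females. Only the form B library of a control male has both features. Names of treated females gave no form. Among control males 9 libraries had form A and 1 had form B, among control females 5 and 6. All 12 libraries of low-dose males had form A and all 20 of high-dose males form B. In males, high dose and name form therefore cannot be told apart. The methods name a time of day for the dissection of sequenced brains, from late morning to early afternoon. By the labelled times 11 pups fell outside that window, among them 2 Aro5 males, 2 BPA5 males and 3 CONSC males. Markers of the hippocampus were present in all groups, with the exception of Fibcd1, which was at or near 0, as were Otx2 of the choroid plexus and Col1a2 of the meninges, and markers of thalamus, striatum and choroid plexus were present as well. The summed level of 11 thalamic genes ranged from 595 to 1464 CPM in control males, and that of 8 genes of the choroid plexus from 1312 to 4016 CPM. All levels are in CPM, the counts of a gene scaled to the total of its library. It takes no account of gene length, and levels were not compared between genes.

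Differences are given as log2 fold changes with their standard error (SE) from edgeR's quasi-likelihood F test, and a member was called when its p, adjusted by the Benjamini-Hochberg method over all genes tested in that comparison, was under 0.05. The comparison of control females with control males called 14 of the 48 members, and all 14 were higher in females. In each of the 9 comparisons of a treated group with controls of the same sex, 0 members were called by edgeR, with 0 to 15 at an unadjusted p under 0.05 and 2 called by DESeq2, both in Aro0.5 males. As a ratio of the highest to the lowest group mean, the widest spans were those of Sema3d, from 2.29 CPM in Aro0.5 males to 8.67 CPM in Aro5 males, and of Ntn1, from 2.61 CPM in Aro0.5 males to 8.76 CPM in CPF3 females. Sema6a had the smallest such ratio, with group means between 135.8 CPM in CPF1 males and 149 CPM in BPA5 females.

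**Figure D1:**
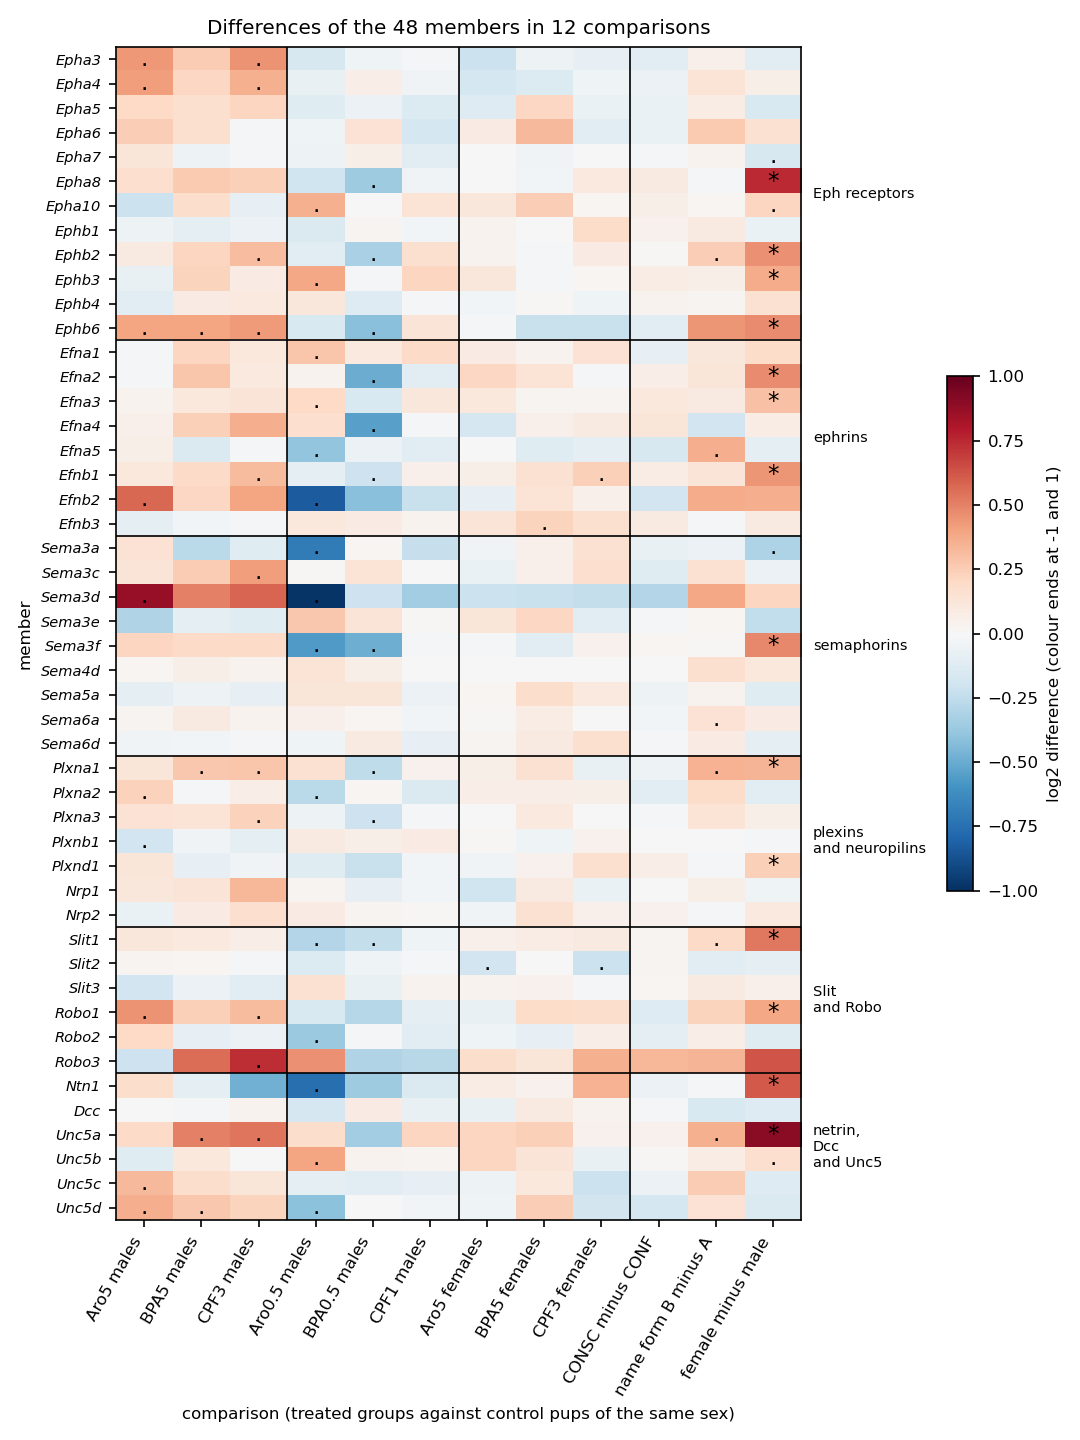
Log2 difference of each of the 48 members (rows, by family) in 12 comparisons (columns). Red is higher and blue lower in the treated group, in CONSC, in name form B or in females, the colour ends at -1 and 1, a star marks an adjusted p under 0.05 and a point an unadjusted p under 0.05. Stars stand only in the column of control females against control males, where there are 14.

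The comparison of control females (10 pups) with control males (9 pups) asked which guidance genes differ between the sexes without treatment. The 14 called members came from all the families (DESeq2 also called 14, against 31.7% of all genes): the Eph receptors Epha8, Ephb2, Ephb3 and Ephb6, the ephrins Efna2, Efna3 and Efnb1, the semaphorin Sema3f, the plexins Plxna1 and Plxnd1, Slit1 and Robo1, and Ntn1 and Unc5a. Over all 16324 genes tested, 29.6% were called, and 17.3% were called as higher in females. The share of members called was thus close to the background, and the members called as lower were 0 of 48. The median difference of the 48 members was 0.09, against -0.02 for all genes tested.

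Unc5a, a netrin receptor of the repulsive arm, had values of 35.4, 46.4 and 54.1 CPM (lowest, median and highest pup) in control males and of 58.7, 83.1 and 102 CPM in control females. Means were 45.7 ± 5.46 CPM (SD, n = 9) and 83.2 ± 12.8 CPM (SD, n = 10). All 10 females lay above the highest male, and the log2 difference was 0.91 ± 0.09 (SE; adjusted p = 2.6e-07). Epha8, a receptor for A-type ephrins, had values of 29.4, 39.2 and 42.3 CPM in males and of 50.1, 61.5 and 85.0 CPM in females, again without overlap, and a log2 difference of 0.74 ± 0.08 (adjusted p = 4.7e-07). Slit1, a secreted repellent, ranged from 31.6 to 48.7 CPM around a median of 42.6 in males and from 49.7 to 68.5 CPM around 60.9 in females, with a log2 difference of 0.53 ± 0.07 (adjusted p = 9.9e-06). Those 3 were the members whose sexes did not overlap. Of all genes tested, 5.68% did not overlap.

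The other 11 called members overlapped between the sexes. Among ephrins, Efnb1, a B-type ligand encoded on the X chromosome, had means of 28.5 ± 2.69 CPM in females and 21.6 ± 2.48 CPM in males (SD), and 9 of 10 females lay above the highest male (log2 difference 0.44 ± 0.07, adjusted p = 4.6e-05). Efna3 differed by 0.29 ± 0.05 and Efna2 by 0.47 ± 0.11. Both are membrane-anchored A-type ligands, and all 10 and 9 of 10 females, respectively, lay above the median male. Among receptors, Ephb2, a receptor for B-type ephrins that also acts at excitatory synapses, had means of 72.2 ± 9.35 CPM in females and 54.0 ± 4.07 CPM in males and differed by 0.46 ± 0.08 (adjusted p = 0.00012). Ephb3 differed by 0.37 ± 0.08, and Ephb6, an Eph receptor without kinase activity, by 0.48 ± 0.16. Sema3f, a secreted ligand of neuropilin 2, differed by 0.48 ± 0.14, and the plexins Plxna1 and Plxnd1 by 0.34 ± 0.10 and 0.24 ± 0.08. Robo1, a Slit receptor, differed by 0.38 ± 0.12, and Ntn1, the netrin ligand, by 0.61 ± 0.20. The adjusted p-values of these last 5 members, Sema3f, Plxna1, Plxnd1, Robo1 and Ntn1, lay between 0.014 and 0.035 by edgeR. When each of the 19 control pups was left out in turn, Plxnd1 lost its call 11 times, Ephb6 5 times and Robo1 and Ntn1 3 times each, and the other 10 called members kept theirs.

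Members that did not pass included Epha7 and Sema3a, with lower values in females (log2 difference -0.16 ± 0.06, adjusted p = 0.066, and -0.31 ± 0.14, adjusted p = 0.094), and Sema3e (-0.25 ± 0.12, adjusted p = 0.14). The receptor Dcc had a median of 66.5 CPM in control males and of 56.1 CPM in control females, and differed by -0.13. Efnb2 and Epha4 had log2 differences of 0.36 and 0.06 and were not called.

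**Figure D2:**
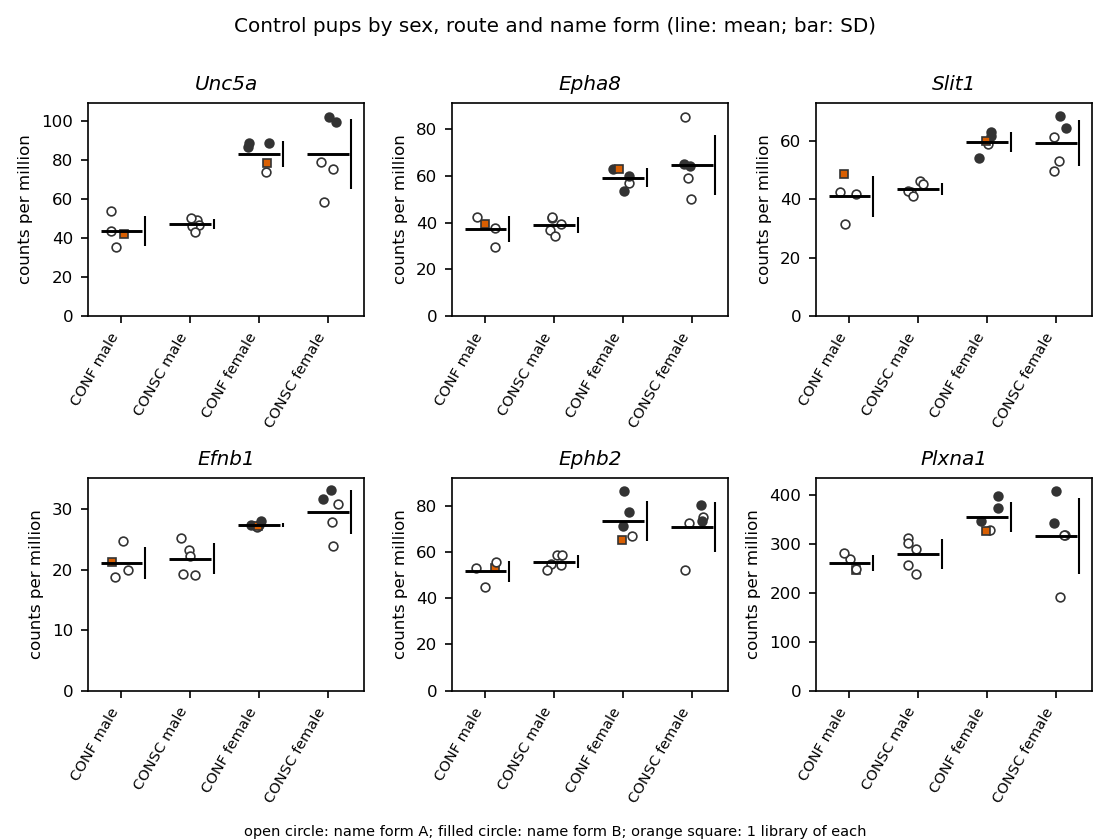
CPM of Unc5a, Epha8, Slit1, Efnb1, Ephb2 and Plxna1 in each control pup, by route and sex. Open circles are pups with form A libraries, filled circles form B, orange squares the 2 pups with a library of each, and the line and bar are the mean and SD of each of the 4 groups. For Unc5a, Epha8 and Slit1 the females of both routes lie above the males of both routes.

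Name form moved with sex in these controls, since females held 6 of the 7 form B libraries. Within form A libraries alone 5 members were called, all higher in females, against 11.4% of all genes: Unc5a (0.74 ± 0.15), Epha8 (0.77 ± 0.12), Slit1 (0.43 ± 0.08), Efnb1 (0.37 ± 0.10) and Ephb2 (0.31 ± 0.09). Pups with form A libraries only had Unc5a at 58.7 to 79.3 CPM in females and at 35.4 to 54.1 CPM in males. The fit also held the form A libraries of N2-2y and N4-3x, given next. By its labels, the male control N2-2y had a library of each form. It gave 21.9 CPM of Unc5a in its form A library and 60.8 CPM in its form B library. That gap was the largest of any member (log2 1.44). In N2-2y, Epha8 was 26.0 and 52.01 CPM and Slit1 38.7 and 57.9 CPM. In the female N4-3x the same genes differed little between forms, with Unc5a at 76.6 and 81.6 CPM, Epha8 at 63.8 and 61.1 CPM and Slit1 at 57.8 and 64.5 CPM. Without N2-2y, 12 members were called (27.4% of all genes), and the differences of Unc5a, Epha8 and Slit1 were 0.88, 0.75 and 0.55. The other 9 called members had log2 differences from 0.15 (Plxna1) to 0.69 (Ntn1) within form A and were not called there. Form A females included the CONSC pup 9-1x, with 192 CPM of Plxna1 and 45.4 CPM of Ephb6. The females with form A libraries only were otherwise at 318 to 327 and 77.0 to 129 CPM. For Ntn1, Sema3f and Plxnd1, 9-1x was the highest of them. The form A fit was not run without this pup.

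Marker lists held calls between the sexes as well. Of the oligodendrocyte markers 4 of 7 were called, 2 higher and 2 lower in females, of the hippocampal markers 3 of 9, all higher, and of the astrocyte markers 2 of 6, both lower. The share of hippocampal markers was near the 29.6% of all genes. Of the thalamic, neocortical, endothelial and meningeal markers 1 each was called as higher, and of the striatal, choroid plexus and microglial markers 0 were. With the thalamic and neocortical scores (mean log2 of each marker list) as covariates, a fit chosen after seeing the data, 20 members were called, 16 higher and 4 lower in females, against 37.4% of all genes. The part of the other lists in the sex difference was not tested.

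Treated pups can be read beside these levels. In Aro5 males Unc5a ranged from 22.8 to 73.4 CPM around a median of 58.9, and in Aro5 females the 5 pups had 80.2, 80.8, 97.9, 104 and 113 CPM. BPA5 males ranged from 40.5 to 82.0 CPM and BPA5 females had 86.2, 100.1, 101 and 102 CPM. CPF3 males ranged from 38.2 to 103 CPM, and the CPF3 females, at 63.7, 68.8, 95.5 and 107.8 CPM, overlapped with them. Epha8 ranged from 22.7 to 58.2 CPM in Aro5 males and from 55.4 to 73.8 CPM in Aro5 females. No test was made between the sexes of treated groups beyond the interaction.

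The promoter windows of the pair of members with the largest sex difference are shown so that they can be read beside these values. They run from 250 bases before to 50 bases after the annotated start, 5′ to 3′ on the gene's strand, from RefSeq (build GRCr8, a later build than the Rnor_6.0 of the counts). Unc5a lies on the minus strand at chr17:9675614-9675913 and Epha8 on the minus strand at chr5:154476917-154477216. Capitals mark GCGTG or its reverse CACGC, the core of the element that the aryl hydrocarbon receptor, a sensor of some polychlorinated biphenyls, binds.
Unc5a: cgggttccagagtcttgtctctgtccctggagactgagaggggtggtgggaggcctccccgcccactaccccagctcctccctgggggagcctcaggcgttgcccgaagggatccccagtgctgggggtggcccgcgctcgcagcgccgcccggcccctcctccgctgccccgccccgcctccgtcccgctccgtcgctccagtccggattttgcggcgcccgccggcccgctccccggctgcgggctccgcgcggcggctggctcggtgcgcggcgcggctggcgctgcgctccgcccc
Epha8: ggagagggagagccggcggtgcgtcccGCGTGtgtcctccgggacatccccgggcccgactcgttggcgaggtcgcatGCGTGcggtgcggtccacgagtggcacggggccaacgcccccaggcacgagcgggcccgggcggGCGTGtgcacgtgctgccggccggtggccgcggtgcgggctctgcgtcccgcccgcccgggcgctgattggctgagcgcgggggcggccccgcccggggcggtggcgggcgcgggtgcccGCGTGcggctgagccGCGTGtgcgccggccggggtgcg

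The Epha8 window held 5 such cores and the Unc5a window 0. Of 33469 promoters of the same length, 29.7% held at least 1 core on either strand, and so did 16 of the 36 members with a window in the table (44.4%). AGGTCA or its reverse TGACCT, a motif to which several nuclear receptors bind, was in 16.2% of all promoters and in 1 of the 36 members. Each match is a description of letters.

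High-dose males were compared with the 9 control males to ask whether the chemicals at their higher dose shift guidance genes. By edgeR, 0 of 48 members were called in Aro5, BPA5 and CPF3 males, where 0.195%, 0.189% and 0.159% of 16393 genes were called. DESeq2 also called 0 in each. At an unadjusted p under 0.05 there were 10 members in Aro5 males (9 of them higher), 4 in BPA5 males (all higher) and 11 in CPF3 males (all higher). The background at that level was 11.8%, 9.1% and 12.6% of all genes, and 7.29%, 4.07% and 5.33% counting the higher ones alone. The median difference of the members was 0.11, 0.14 and 0.10, against medians of all genes from -0.0016 to 0.0076. Values above the control mean stood for 33, 33 and 32 of 48 members. All 3 comparisons share the same controls, and no member was free of overlap between a high-dose group and controls, against 0.305%, 0.207% and 0.244% of all genes.

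Of the Eph receptors, Epha4, which binds both ephrin classes and is known for a role at hippocampal synapses, had the smallest p in Aro5 males. Control males had 168, 218 and 278 CPM (lowest, median and highest), Aro5 males 209, 288 and 335 CPM, BPA5 males 172, 237 and 342 CPM and CPF3 males 181, 282 and 324 CPM. In the Aro5 group 5 of 6 pups lay above the control median and 3 above the highest control. The log2 difference was 0.42 ± 0.13 in Aro5 (adjusted p = 0.23), 0.21 in BPA5 and 0.35 ± 0.13 in CPF3 males (adjusted p = 0.30). Epha3, a receptor for A-type ephrins, had means of 35.9 CPM in controls, 47.8 CPM in Aro5 and 48.7 CPM in CPF3 males, and all 7 CPF3 pups lay above the control median, though with overlap. Ephb6 had log2 differences of 0.39, 0.40 and 0.42, the most even across the chemicals, and adjusted p-values from 0.36 to 0.52. Ephb2 had a log2 difference of 0.31 ± 0.12 in CPF3 males.

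Of the ephrins, Efnb2, a transmembrane B-type ligand with roles in synapses and vessels, ranged from 6.46 to 15.8 CPM around a median of 9.12 in control males. Aro5 males had 9.79, 14.6 and 24.3 CPM, BPA5 males 8.10, 11.7 and 17.2 CPM and CPF3 males 9.32, 13.5 and 21.6 CPM. All 6 Aro5 pups lay above the control median, but only 2 above the highest control. The log2 difference in Aro5 males was 0.58 ± 0.20, with an unadjusted p of 0.0081 and an adjusted p of 0.26 by edgeR's quasi-likelihood test. In BPA5 and CPF3 males the differences were 0.21 and 0.40. Efnb1 had a log2 difference of 0.32 ± 0.13 in CPF3 males, where 3 of 7 pups lay above the highest control. Efnb3, another B-type ligand, lay at 253 to 302 CPM in Aro5 males and 273 to 343 CPM in controls.

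The promoter window of Efnb2, shown because this gene had the highest ratio of group means among the ephrins, lies on the plus strand at chr16:87484965-87485264 (GRCr8) and held 0 of the cores named above.
Efnb2: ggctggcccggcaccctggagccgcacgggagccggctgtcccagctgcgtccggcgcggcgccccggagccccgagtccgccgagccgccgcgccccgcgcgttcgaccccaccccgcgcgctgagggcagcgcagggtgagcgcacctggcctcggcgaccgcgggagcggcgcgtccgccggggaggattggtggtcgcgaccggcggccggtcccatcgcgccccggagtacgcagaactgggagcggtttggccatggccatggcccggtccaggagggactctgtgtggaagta

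Of the semaphorins, the secreted ligand Sema3d had the largest difference of any member in Aro5 males. Controls had 1.88, 4.21 and 8.62 CPM and Aro5 males 3.13, 8.99 and 14.3 CPM, and the log2 difference was 0.87 ± 0.30 (adjusted p = 0.25). BPA5 and CPF3 males had means of 6.76 and 7.08 CPM. Sema3c, another secreted ligand, ranged from 100.3 to 180.4 CPM in CPF3 males and from 64.4 to 144 CPM in controls (log2 difference 0.42 ± 0.20). Sema5a and Sema6a, both membrane-bound, had log2 differences from -0.09 (Sema5a in Aro5 males) to 0.09 (Sema6a in BPA5 males).

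Of the plexins, Plxna3, a partner of neuropilins, had the smallest p in CPF3 males. Its values were 157, 169.6 and 207 CPM in controls and 172, 196 and 248 CPM in CPF3 males, all 7 of which lay above the control median, and the log2 difference was 0.23 ± 0.07 (adjusted p = 0.22). Plxna1 had means of 271 CPM in controls, 325 CPM in BPA5 and 327 CPM in CPF3 males. In Aro5 males its values spread from 179 to 398 CPM, wider than in controls (238 to 311 CPM). Plxna2 had a log2 difference of 0.23 ± 0.10 and Plxnb1 of -0.19 ± 0.08 in Aro5 males, the latter the single member below controls at an unadjusted p under 0.05. Plxna4a, outside the 48, had 13.0 to 58.4 CPM over all pups and a log2 difference of 0.49 ± 0.19 in Aro5 males (adjusted p = 0.29).

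Of the Slit and Robo genes, Robo1 had values of 31.1, 41.1 and 59.1 CPM in controls and of 33.9, 59.2 and 71.6 CPM in Aro5 males, a log2 difference of 0.45 ± 0.15 (adjusted p = 0.25). In CPF3 males it was 0.32 ± 0.15. Robo2, like Robo1 a receptor for Slit ligands, had 239, 253 and 366 CPM in Aro5 males and 174, 234 and 289 CPM in controls. Robo3, a receptor best known for letting commissural axons cross the midline, stood at 0.975 to 5.84 CPM in controls and 2.30 to 6.60 CPM in CPF3 males, with a log2 difference of 0.74 ± 0.35. The ligands Slit1 and Slit2 had differences of 0.12 or less in size in each high-dose male group.

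Of the netrin system, Unc5d ranged from 34.7 to 62.8 CPM around a median of 45.3 in controls and from 45.2 to 72.3 CPM around 61.4 in Aro5 males, with a log2 difference of 0.37 ± 0.12 (adjusted p = 0.25). Unc5c had a log2 difference of 0.33 ± 0.12 in the same pups. Unc5a had log2 differences of 0.50 ± 0.20 in BPA5 and 0.53 ± 0.20 in CPF3 males, and 5 of 7 BPA5 pups and 4 of 7 CPF3 pups lay above the highest control. Dcc, the attractive netrin receptor, had means of 65.4, 64.7, 64.4 and 66.5 CPM in control, Aro5, BPA5 and CPF3 males. Ntn1 had log2 differences of 0.18, -0.09 and -0.48.

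**Figure D3:**
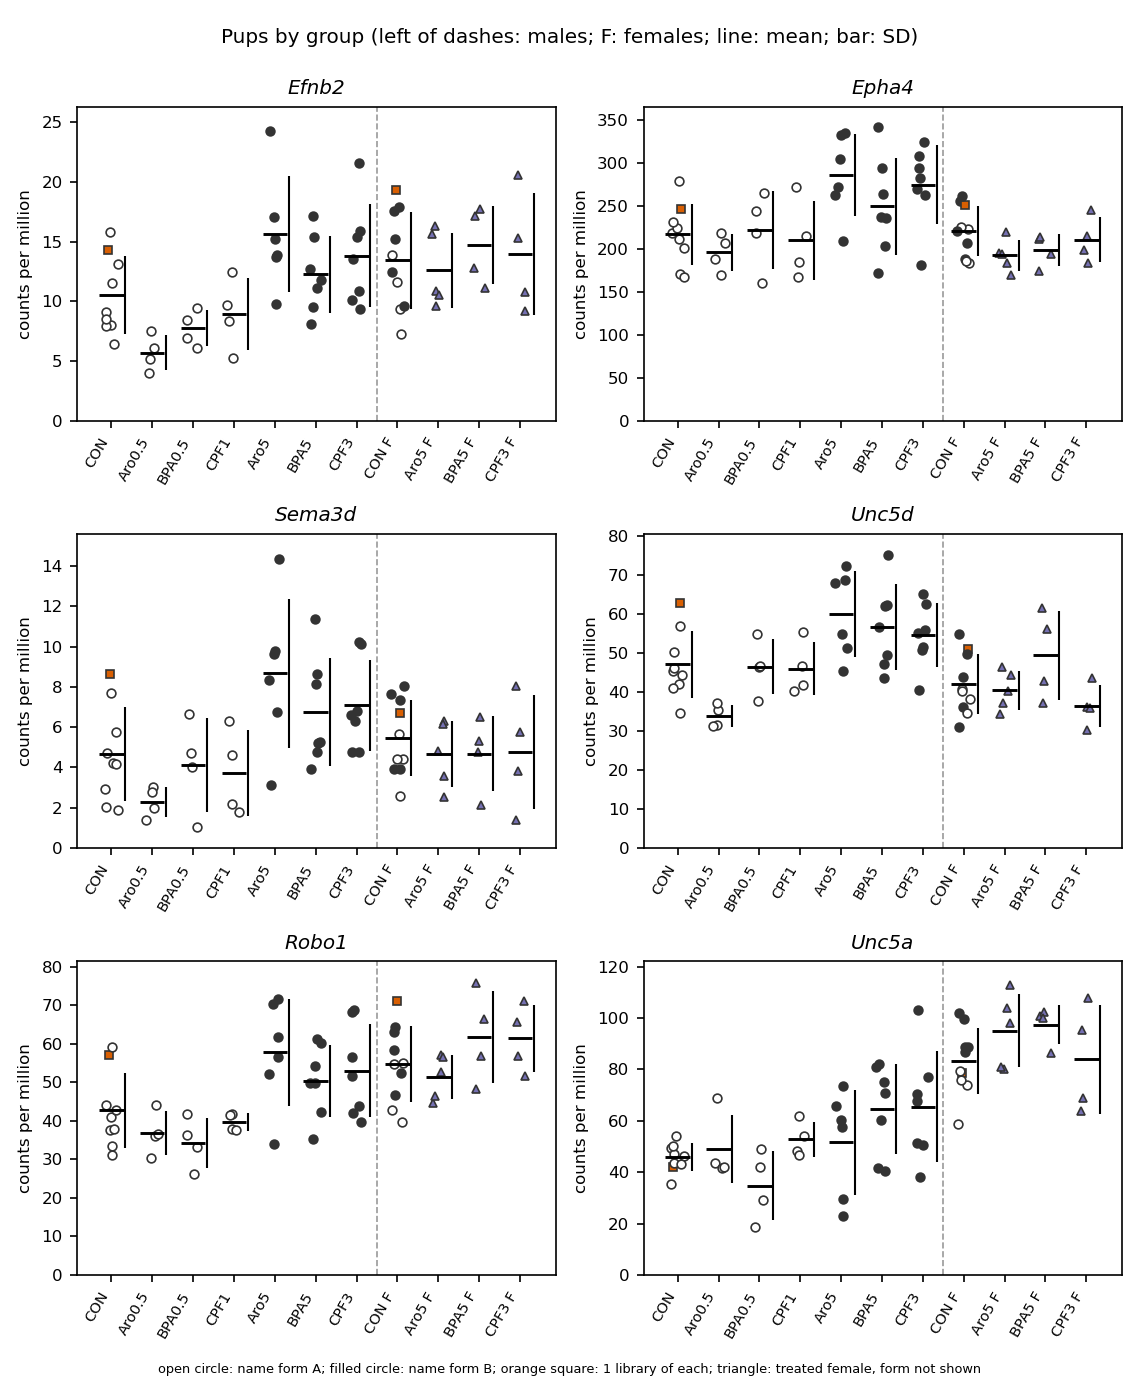
CPM of Efnb2, Epha4, Sema3d, Unc5d, Robo1 and Unc5a in each of the 64 pups, by group. Open circles are form A, filled circles form B, orange squares pups with a library of each, triangles treated females, and the line and bar are the mean and SD. High-dose males overlap with control males for all 6 genes, and of the 4 Aro0.5 males 3 lie below the lowest control male for Efnb2, 2 for Unc5d and 1 for Sema3d, the others in the lower part of the control range.

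Values that moved with the high-dose male groups stand beside these results. The summed level of 9 neocortical markers was 439 to 799.5 CPM in control males and 714 to 913 CPM in Aro5 males, and 4 of the 9 had an unadjusted p under 0.05, none with an adjusted p under 0.05. The summed level of 11 thalamic markers was 225 to 1219 CPM in Aro5 males. With the thalamic and neocortical scores as covariates, a fit added after seeing the data, the members with an unadjusted p under 0.05 were 0 in Aro5 males (background 3.73%), 7 in BPA5 males (11.9%) and 6 in CPF3 males (9.64%). In CPF3 males 3 of 9 neocortical markers were higher and 4 of 8 striatal markers lower at an unadjusted p under 0.05, as were 2 of 9 hippocampal markers (higher) and 3 of 7 microglial, 2 of 7 oligodendrocyte and 2 of 6 astrocyte markers (lower). In BPA5 males these counts were 2 of 9 neocortical, 1 of 8 striatal and 1 of 9 hippocampal markers, with 1 of 7 oligodendrocyte markers lower and 1 of 5 meningeal markers higher. In Aro5 males 1 hippocampal and 1 astrocyte marker were higher and 1 thalamic and 1 microglial marker lower. The difference of Efnb2 in Aro5 males was with these covariates 0.10 ± 0.16 and that of Epha4 0.16 ± 0.12. With a term for name form, estimated on the controls of both sexes, the counts were 0, 2 and 0 (4.22%, 5.15% and 5.65% of all genes). The medians of the members were then -0.02, 0.02 and 0.02. Efnb2 and Epha4 differed by 0.18 ± 0.28 and 0.30 ± 0.17 in Aro5 males. Most form B control libraries were female, and their form rests on another feature of the names than that of high-dose males. Whether the term holds for high-dose males was not tested.

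A fit without the pups outside the time window gave other counts. It kept 4 Aro5 males, 2 of them littermates, and left out 3 of the 9 control males, all CONSC, and 6 members were called as higher: Efnb2 (0.88 ± 0.23), Epha4 (0.63 ± 0.16), Robo1 (0.73 ± 0.18), Sema3d (1.33 ± 0.35), Unc5c (0.51 ± 0.14) and Unc5d (0.56 ± 0.16). In that fit 4.96% of all genes were called, and 4.18% as higher. In BPA5 and CPF3 males 0 members were called within the window. Among the 3 high-dose male groups, which all have form B libraries, 0 members were called by edgeR or DESeq2 and 0 had an unadjusted p under 0.05 (background 3.18%), with Robo3 at the smallest unadjusted p of 0.054 by edgeR's quasi-likelihood test.

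Low-dose males, all with form A libraries as nearly all control males, were compared with the same 9 controls. In Aro0.5 males 0 members were called by edgeR (0.124% of 16139 genes), and 15 had an unadjusted p under 0.05, 10 of them lower and 5 higher, against 18.5% of all genes. DESeq2 called 2 members, Efnb2 and Sema3a, against 1.67% of all genes. In BPA0.5 males 0 were called by either tool (0.0434% by edgeR) and 10 had an unadjusted p under 0.05, all lower, against 8.58% of all genes and 5.48% counting the lower ones alone. In CPF1 males 0 were called by either tool, 0 had an unadjusted p under 0.05, and the background was 2.0%. The medians of the members were -0.05, -0.05 and -0.03. No member was free of overlap, against 1.53%, 0.508% and 0.0744% of all genes.

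The 4 Aro0.5 males had 4.01, 5.16, 6.11 and 7.47 CPM of Efnb2, and 3 of them lay below the lowest control at 6.46 CPM. The log2 difference was -0.83 ± 0.22, with an adjusted p of 0.12 by edgeR's quasi-likelihood test. Sema3a, a secreted repellent of hippocampal and cortical axons, had 11.1, 18.0, 27.2 and 30.5 CPM against a control range of 17.8 to 50.5 CPM, and Sema3d had 1.38, 1.97, 2.78 and 3.03 CPM against 1.88 to 8.62 CPM. Their log2 differences were -0.70 ± 0.21 and -0.98 ± 0.41. Unc5d had 31.1, 31.5, 35.5 and 37.1 CPM, Efna5 43.2, 46.0, 46.9 and 54.96 CPM, and Ntn1 1.74, 2.34, 2.43 and 3.94 CPM. The control ranges began at 34.7, 54.6 and 2.74 CPM. These values lay at or below the lower end of the ranges, except that the Ntn1 value of 3.94 CPM lay well within it. Of the 4 pups, 2 were below the lowest control for Unc5d and 3 each for Efna5 and Ntn1. Differences above 0 at an unadjusted p under 0.05 were those of Unc5b (0.39), Ephb3 (0.38), Epha10 (0.35), Efna1 (0.28) and Efna3 (0.20). The difference of Efnb2 from controls was thus below 0 in Aro0.5 and above 0 in Aro5 males, which share the controls but differ in name form and in dose.

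Marker genes moved with the Aro0.5 males too. Thalamic markers summed to 849 to 1374 CPM, with a mean of 1201 CPM against 856 CPM in controls, and 7 of 11 were higher at an unadjusted p under 0.05. Neocortical markers summed to 342 to 543 CPM, with a mean of 429 CPM against 572 CPM, and 3 of 9 were lower at that level. Striatal markers summed to 120 to 384 CPM against 136 to 755 CPM, with 7 of 8 lower and a median of -0.87, and choroid plexus markers to 873 to 3186 CPM against 1312 to 4016 CPM, with 5 of 7 lower and a median of -0.52. Of the endothelial, astrocyte and meningeal markers 1 each was higher, and of the hippocampal, oligodendrocyte and microglial markers 0 had an unadjusted p under 0.05. The part of the striatal and choroid plexus markers in these results was not tested. With the thalamic and neocortical scores as covariates, 3 members had an unadjusted p under 0.05 (background 5.51%): Ntn1 (-0.59), Slit1 (-0.26) and Unc5c (0.17). The difference of Efnb2 was then -0.31 ± 0.19. A further control pup bore on the call: without the CONSC male 8-4y, edgeR called 4 members, Efnb2, Sema3a, Sema3f and Unc5d, against 2.0% of all genes.

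In BPA0.5 males the smallest p belonged to Ephb2, whose 4 values of 39.3, 39.4, 42.9 and 46.9 CPM lay low in the control range of 45.0 to 58.7 CPM, 3 of them below it. The log2 difference was -0.33 ± 0.09 (adjusted p = 0.28). Ephb6 had 45.5, 51.0, 59.4 and 73.5 CPM (-0.42 ± 0.15), Efna2 3.19, 5.82, 8.09 and 10.0 CPM (-0.50 ± 0.19), Plxna1 182, 201, 212 and 294 CPM (-0.26 ± 0.10) and Plxna3 132, 133.5, 149.8 and 179 CPM (-0.21 ± 0.08). Without the BPA0.5 male 75-1y, Plxna1 was called, as the single member, against 0.191% of all genes. The other 5 were Slit1, Epha8, Sema3f, Efna4 and Efnb1, with differences from -0.21 (Efnb1) to -0.54 (Efna4). The comparison of control females with control males rests on the same 9 males and gave 0.46 for Ephb2 and 0.48 for Ephb6. With the tissue scores as covariates 15 members had an unadjusted p under 0.05, 14 of them lower, against 16.1% of all genes.

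Among the 3 low-dose groups 0 members were called by edgeR (0.0186% of all genes), 10 had an unadjusted p under 0.05 (13.3%), and DESeq2 called Ephb2 (0.366% of all genes). The CPF1 males had 49.9, 55.1, 66.3 and 68.8 CPM of Ephb2 and the Aro0.5 males 42.7, 46.8, 50.6 and 50.7 CPM. All 4 BPA0.5 values lay below the lowest of CPF1. The share of all genes without overlap between these groups was not computed, and Ephb2 was picked by the test on the same pups.

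**Figure D4:**
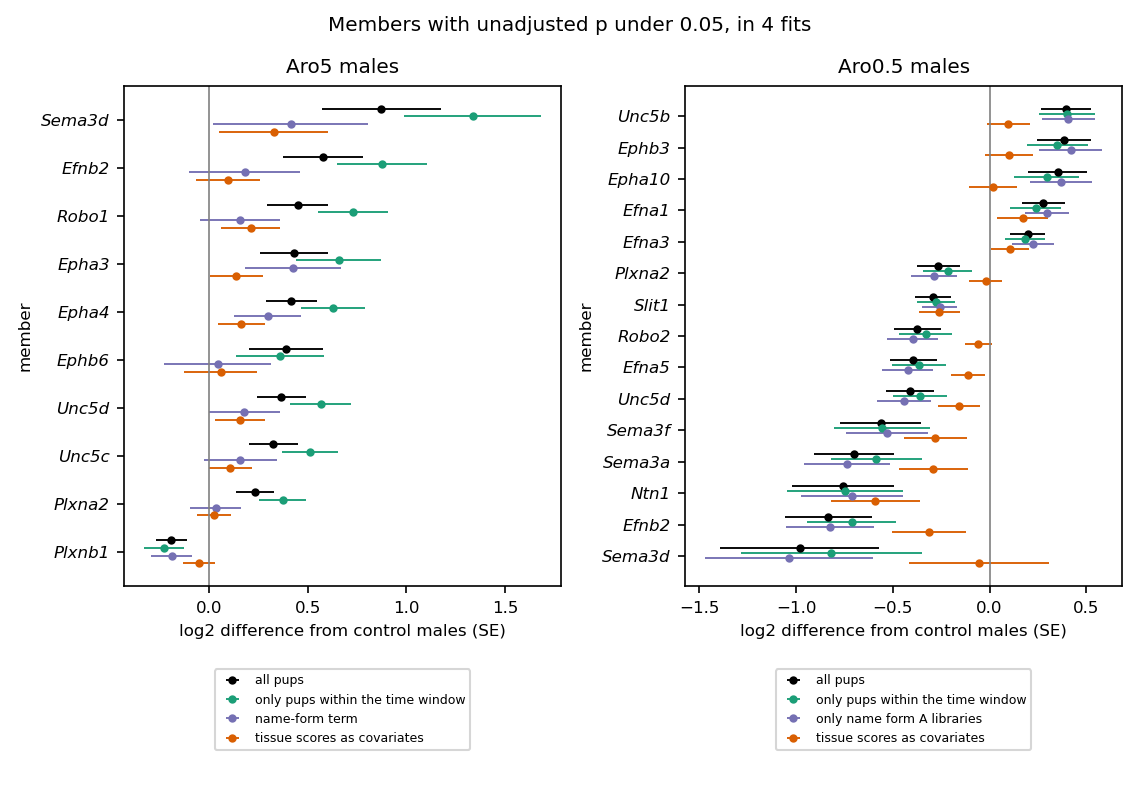
Log2 difference from control males (horizontal axis, bars are SE) of the members with an unadjusted p under 0.05 in Aro5 males (left) and Aro0.5 males (right), in 4 fits each. Differences in Aro5 males were larger within the time window (6 called members, Sema3d 1.33) and smaller with the tissue scores as covariates (Efnb2 0.10), and those in Aro0.5 males were smaller with these scores (Efnb2 -0.31).

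Treated females were compared with the 10 control females. These controls held 5 form A and 6 form B libraries, and names of treated females gave no form. The part of name form in these comparisons was not tested. By edgeR and by DESeq2, 0 members were called in Aro5, BPA5 and CPF3 females, and edgeR called 0.0% of 16992 genes in each. At an unadjusted p under 0.05 there were 1, 1 and 2 members, against 3.23%, 4.08% and 8.79% of all genes. In Aro5 females the member was Slit2, a secreted repellent, at 19.2, 19.3, 22.0, 22.6 and 22.7 CPM against 21.2 to 30.0 CPM in control females (-0.19 ± 0.09). In BPA5 females it was Efnb3, at 335, 349.7, 359 and 369 CPM against 256 to 402 CPM (0.22 ± 0.09). In CPF3 females they were Efnb1 (0.24 ± 0.09), at 28.0, 28.3, 36.0 and 40.7 CPM, and Slit2 (-0.22 ± 0.10), at 17.4, 20.1, 22.6 and 22.9 CPM. The medians of the members were 0.01, 0.06 and 0.03.

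Epha4 and Efnb2 did not pass the test in females either. The Aro5 females had 169.6, 183, 194, 195 and 219 CPM of Epha4 against 183 to 261 CPM in control females (log2 difference -0.18), and 9.59, 10.5, 10.9, 15.6 and 16.3 CPM of Efnb2 against 7.28 to 19.3 CPM (-0.08). The interaction tested whether the response of males differed from that of females. In that test 0 members were called by edgeR or DESeq2 for Aro5, BPA5 and CPF3 (0.0984%, 0.0405% and 0.0463% of 17282 genes by edgeR), and 7, 2 and 5 had an unadjusted p under 0.05 (8.92%, 2.79% and 5.6%). The smallest p was that of Epha4 for Aro5, with a male response above the female one by 0.61 ± 0.17 (log2; adjusted p = 0.25). Within the time window Epha4, Robo1 and Sema3d were called for Aro5, against 3.49% of all genes. The name form of the high-dose males was B throughout, which cannot be told apart from their treatment in this test either.

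The control groups were compared among themselves. Between CONSC and CONF, with sex as a term, 0 members were called by edgeR or DESeq2 (0.0123% of all genes by edgeR), 0 had an unadjusted p under 0.05 (3.03%), and the median of the members was -0.01. Between form B and form A libraries of control females, 0 members were called by edgeR (1.43% of 16577 genes), and 6 had an unadjusted p under 0.05, all higher in form B (18.7%, and 8.63% counting the higher ones alone): Unc5a (0.36 ± 0.08, adjusted p = 0.056), Efna5 (0.37), Plxna1 (0.34), Ephb2 (0.24), Slit1 (0.19) and Sema6a (0.15). DESeq2 called Unc5a (5.18% of all genes). Libraries were counted separately here, so that N4-3x stood on both sides and its 2 libraries were treated as independent. In form B libraries 38 of 48 members were above form A, with a median of 0.09. In the 2 pups with a library of each form, 27 of 48 members (N2-2y, median 0.11) and 28 of 48 (N4-3x, median 0.01) were higher in form B.

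Further genes of the pathway were counted from fixed lists, 35 other ligands and receptors (33 tested) and 52 intracellular effectors (50 tested). In the sex comparison 15 of the 33 other ligands and receptors were called, 13 of them higher in females, against 29.6% and 17.3% of all genes. Among the higher ones were the netrin Ntn3 (1.14 ± 0.17), the semaphorins Sema5b (0.76 ± 0.10) and Sema6b (0.68 ± 0.06) and the repulsive guidance molecule Rgma (0.63 ± 0.10). The lower ones were Plxnc1 and Flrt2. Of the 50 effectors, 10 were called as higher and 5 as lower, the latter Cdc42, Rac1, Ptk2, Dpysl2 and Pak3. Their share was near the 29.6% of all genes. Against the controls, 1 of the 50 effectors was called by edgeR in Aro0.5 and in BPA0.5 males and 0 in the other treated groups. The background was 0.124% and 0.0434% of all genes. This effector was Dpysl5, a collapsin response mediator of growth cones, with -0.60 ± 0.11 (adjusted p = 0.019) and -0.83 ± 0.11 (adjusted p = 0.0037). It was higher in control females than in control males by 0.81 ± 0.13. None of the other ligands and receptors was called by edgeR in a treated group. In Aro5, BPA5 and CPF3 males 4, 2 and 4 of 33 had an unadjusted p under 0.05, against 11.8%, 9.1% and 12.6% of all genes.

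Levels of the members within groups varied with markers of the tissue that the piece contained. For each of 64 pups, the log2 CPM of a member and the mean log2 of a marker list were taken after subtraction of group means, and 48 members against 4 lists gave 192 relations. By Pearson's r, 81 had an adjusted permutation p under 0.05, 22 with hippocampal, 21 with thalamic, 21 with neocortical and 17 with choroid plexus markers. The share of all genes with such relations was not computed. These counts therefore have no background and do not show a trait particular to the members. Permutation within groups allowed no p below 1e-05, or 8.7e-05 after adjustment. Library depth and dissection are shared by both sides of each relation, and some pups share a litter.

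With hippocampal markers, the relations were strongest for the ligand Sema3c (r = 0.75, rho = 0.64, adjusted permutation p = 8.7e-05 and 6.6e-05), Epha5 (r = 0.72), Plxna1 (r = 0.70), Nrp1, the receptor of several class 3 semaphorins (r = 0.69), and Epha3 (r = 0.68), whereas Ntn1 ran the other way (r = -0.57). Without the 2 pups farthest from the median, r of Sema3c was 0.71. Within form A males, form B males and females, r of Sema3c was 0.87, 0.68 and 0.81. With thalamic markers, Sema3e (r = 0.75, rho = 0.74), Nrp2 (r = 0.70), Robo3 (r = 0.66) and Sema6a (r = 0.62) ran in the same direction as the score, and Robo2 (r = -0.65), Plxnd1 (r = -0.61), Sema3f (r = -0.60), Ephb1 (r = -0.60), Efnb2 (r = -0.59), Efna5 (r = -0.57) and Sema3a (r = -0.55) in the opposite one. The r of Sema3e was 0.78 without the 2 farthest pups and 0.85, 0.68 and 0.81 within the 3 sets of pups.

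With neocortical markers, Unc5c (r = 0.74), Ephb6 (r = 0.71), Efna5 (r = 0.68, rho = 0.75), Plxna3 (r = 0.65), Sema3d (r = 0.61), Plxna2 (r = 0.58), Epha4 (r = 0.52) and Efnb2 (r = 0.51, rho = 0.63) ran in the same direction, and Efnb3 (r = -0.61) and Plxnb1 (r = -0.60) in the opposite one. The CONSC female 9-1x, far below the others on this score, was 1 of the 2 pups farthest from the median, and without those 2 r was 0.64 for Unc5c and 0.63 for Efnb2. With choroid plexus markers, Robo3 had r = -0.73 (rho = -0.68), which was -0.61 and -0.62 in form A and form B males and -0.85 in females, and Ephb1 had r = 0.60. Of the 14 members called between the sexes, 6 had an adjusted p under 0.05 with hippocampal markers: Plxna1 (r = 0.70), Ephb2 (r = 0.62), Ephb6 (r = 0.58), Unc5a (r = 0.45), Plxnd1 (r = -0.40) and Ntn1 (r = -0.57). The other 8 had r from -0.31 (Epha8) to 0.27 (Robo1).

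**Figure D5:**
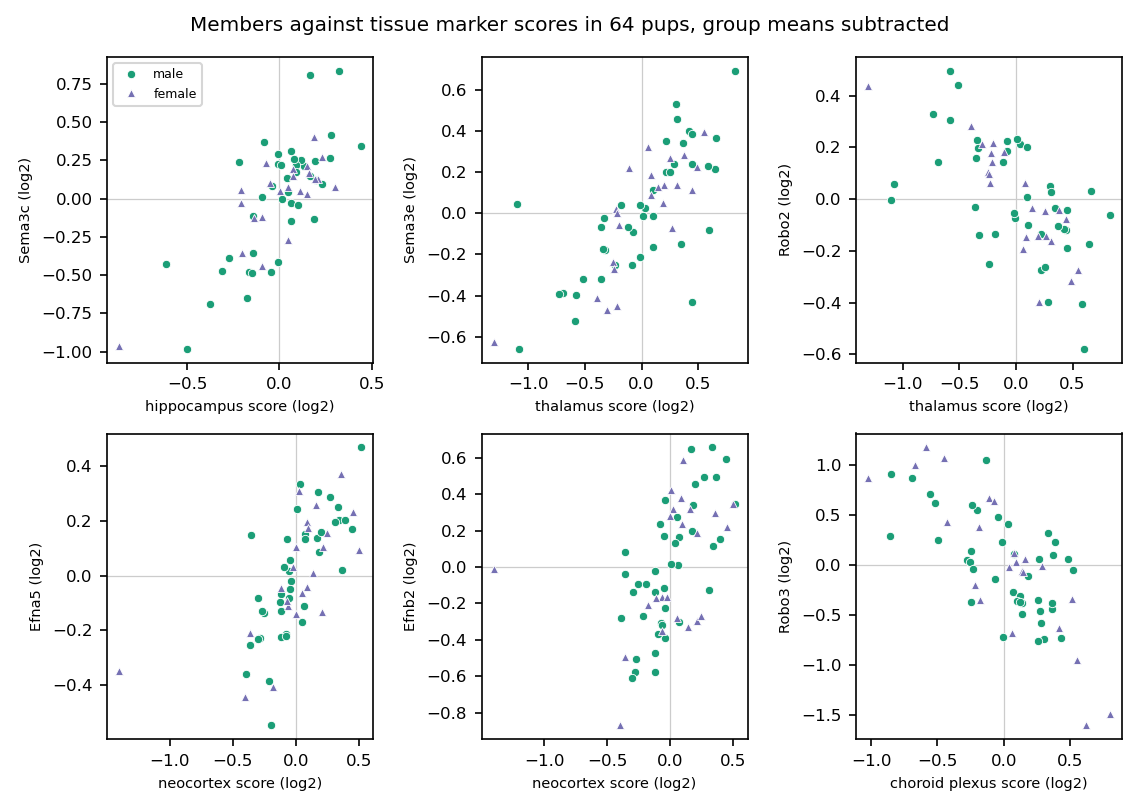
Log2 level of 6 members (vertical axes) against the score of a marker list (horizontal axes, log2) in 64 pups after subtraction of group means, with circles for males and triangles for females. Sema3c and Sema3e rise with the hippocampal and thalamic scores (r = 0.75 each), Robo2 falls with the thalamic (r = -0.65) and Robo3 with the choroid plexus score (r = -0.73), and Efna5 and Efnb2 rise with the neocortical score (r = 0.68 and 0.51).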

How the data were processed

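Total RNA of dorsal hippocampus was sequenced from poly(A)-selected, stranded libraries with single-end reads. The authors aligned reads to Rnor_6.0 and counted them per gene, with STAR and featureCounts named in the submitters' processing notes, which also name kallisto. The deposited values are raw counts per gene and library. The labels and the methods name different sequencers. Counts of the 2 pups with a library in each name form were summed. Members and gene lists were chosen with earlier results of these data known, and the genes named are the members that a rule on calls, smallest p-values and levels picks, with a few others named after their values were seen.

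Genes were filtered by filterByExpr, scaled by TMM and tested with edgeR 4.0.16 (quasi-likelihood F test, Benjamini-Hochberg adjustment over all genes tested). CONF and CONSC were pooled as controls, as the study did. Levels are plain CPM. Depth of 10644138 to 86206550 counts set the precision. DESeq2 1.42.0, limma 3.58.1 with litter as a block, other controls, the time window, name form and leaving out single pups were alternatives. Labels and methods describe 1 pup per sex and litter, which 2 Aro5 groups do not keep, so that p-values there treat littermates as independent. In 7 litters with a control pup of each sex, deviations from group means correlated at -0.46 to 0.22. No pair of pups of a group agreed within sampling noise. The scripts were tested on simulated data.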

Additional observations from a re-analysis of the deposited data

Results flagged for a closer look

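Dixon's test at the 95% level was run on 29 of the members, in 377 groups of 4 to 7 pups and 1 member each. The remaining members were not screened in this way. In 16 of these groups the highest or lowest pup stood apart from the others, which chance alone does in about 5% of such groups. In CONF males, N4-7y had 25.9 CPM of Epha3 (others 37.6 to 37.8), and N2-2y, the male with a library of each name form, had 289 CPM of Robo2 (229 to 237) and 30.0 CPM of Slit2 (25.1 to 25.5). The CONF female N2-4x had 30.0 CPM of Slit2 (21.2 to 23.5), and the CONSC female 9-1x, lowest also on the neocortical score, had 52.4 CPM of Ephb2 (72.8 to 80.5). In BPA5 males, 81-1y had 71.8 CPM of Epha8 (33.2 to 49.3) and 9.01 CPM of Ntn1 (2.96 to 4.06), and 88-3y had 238 CPM of Plxna2 (157 to 187). In BPA5 females, 91-9x had 39.9 CPM of Sema3f (30.2 to 31.4) and 86.2 CPM of Unc5a (100.1 to 102), and 79-4x had 179 CPM of Sema6a (137 to 144). The CPF3 male 36-3y had 181 CPM of Epha4 (263 to 324), the CPF3 female 43-3x 54.4 CPM of Ephb6 (101 to 103) and the CPF1 male 16-7y 49.4 CPM of Epha3 (30.6 to 30.8). The Aro5 male 120-2y had 366 CPM of Robo2 (239 to 280.0), and the Aro0.5 male 98-8y 69.0 CPM of Unc5a (41.6 to 43.6). Among the 29 members screened, the pups N2-2y, 81-1y and 91-9x came up 2 times each.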

How the results depend on the processing

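The counts of called members were within 1.5 times of those reported in 96 of 102 alternatives and in 305 of 307 fits without a single pup. The exceptions were 6 in Aro5 males and 3 for the sex by Aro5 interaction within the time window, 2 in Aro0.5 males, 1 among the low-dose groups and 1 between name forms with DESeq2, and 5 between the sexes within form A. Without single pups the counts ranged from 0 to 4 in Aro0.5 males, from 0 to 1 in BPA0.5 males and from 11 to 15 between the sexes, and were 0 elsewhere. The difference of Efnb2 in BPA5 males turned to -0.19 with the name form term. The causes were not tested. Leaving out single pups was not run for the interactions and the name forms. Litter was used as the replicate block, since replicate numbers are pup names, and gave 12 called members between the sexes (without Ephb6 and Ntn1; 26.8% of all genes) and 0 for each interaction. Within the time window 12 were called between the sexes (23.4% of all genes), without Ntn1, Plxnd1 and Sema3f and with Efnb2. With groups of 4 to 10 pups, small differences were not detectable, and name form limits all high-dose male values. Comparisons of treated females are limited too, since their form is unknown and their controls held both forms.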

Other observations

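Sema6a, Efna3 and Efnb3 varied least within groups, with pooled SDs of 0.127, 0.141 and 0.142 on the log2 scale. The female N4-3x and the male N2-2y, each with 1 library of either name form, differed between their libraries by -0.36 to 0.24 and by -0.56 (Sema3d) to 1.44 (Unc5a) over the 48 members on the log2 scale.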
